A study of Mus musculus with 6 samples.

Results

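Kctd14, Cyp2s1, Ank1, Tex14 and Fam81a are 5 genes whose part in cumulus cells is little studied. They were chosen from 18194 measured genes because their signal on the arrays was about 20-fold or more lower in cumulus cells 6 h after human chorionic gonadotropin (hCG) than in cumulus cells without it. All 5 genes were found on the arrays, with 11 probe sets among the 34958 that carry 1 gene symbol. A probe set is a group of short probes that together report 1 stretch of a transcript. The choice rests on the difference between the groups, so the values of the 5 genes are a description and no test is given for them. Tests are given for their relatives, partner genes and chromosomal neighbours, which the choice did not use. The lists of relatives and partner genes were, however, drawn up with earlier results of these data known.

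Cumulus cells are the somatic cells around the oocyte. The hCG-6h group came from wild-type mice that received 5 IU of equine chorionic gonadotropin (eCG) at 21 days of age to make follicles grow, and 46 h later 5 IU of hCG, the ovulatory stimulus, for 6 h. The hCG-0h group came from wild-type mice with the same eCG priming and no hCG. Age at isolation is labelled as 23 days in both groups, and no strain is named. Each group held 3 samples, each of cumulus cells pooled from 50 cumulus-oocyte complexes and put on its own array, and the handling medium of both groups contained milrinone, which keeps oocytes from maturing. All hCG-6h titles say 6 h, but the description fields say 7 h for sample 2 and 8 h for sample 3. The labels do not say whether the samples came from separate mice, so p-values measure the spread between these samples, which may be technical. No group spent the extra 6 h without hCG, so hCG and elapsed time cannot be told apart.

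The 5 proteins have unrelated roles. Kctd14 belongs to the KCTD family, named after the tetramerisation domain of potassium channels, many of whose members work as adaptors of ubiquitin ligases built on cullin-3. Cyp2s1 is a cytochrome P450, and its human form metabolises retinoids and eicosanoids and is induced through the aryl hydrocarbon receptor. Ank1, erythroid ankyrin, ties membrane proteins to the spectrin skeleton and is best known from red blood cells. Tex14 keeps the intercellular bridges of male germ cells open by blocking the last step of cytokinesis. Fam81a encodes a coiled-coil protein that has been studied mainly at synapses.

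The 5 genes were part of a wide difference between the groups. Of 18194 genes, 1905 were lower (10.5%) and 1969 were higher (10.8%) at hCG-6h (limma, Benjamini-Hochberg adjusted p under 0.05 over all genes), and the median log2 change of all genes was 0.0067. Of 9 measured granulosa and cumulus markers, 7 fell, with a median log2 change of -1.80. The mean log2 level of these markers was 9.43 to 9.60 in hCG-6h samples and 11.23 to 11.30 in hCG-0h samples. The 7 falls had log2 changes from -0.39 for Nr5a1 to -3.7 for Slc38a3, with Fshr at -3.22 and Amhr2 at -2.65. The markers that did not pass were Inha, the inhibin alpha subunit, and Foxl2, a transcription factor of granulosa cells. Both stayed bright, with Inha at 13.39 and 13.46 and Foxl2 at 9.77 and 10.07 (means at hCG-6h and hCG-0h, adjusted p = 0.629 and 0.413, limma). These are bulk samples, in which fewer cells of a type and less RNA per cell cannot be told apart. Of the markers of other cells, 0 of 14 for oocytes, 0 of 8 for leukocytes, 0 of 7 for endothelial cells and 0 of 5 for surface epithelium passed in limma, with 2, 3, 2 and 0 at an unadjusted p under 0.05. Of 5 theca markers 2 fell, Aldh1a1, a retinal dehydrogenase, 4.47-fold and Ptch1, the hedgehog receptor, 1.89-fold (adjusted p = 0.000451 and 0.00293, limma). The mean log2 level of the theca markers was 6.89 to 7.13 in hCG-6h samples and 7.73 to 7.94 in hCG-0h samples. Cyp17a1, the androgen-making enzyme that defines theca cells, was dim at 5.83 and 5.84 (means at hCG-6h and hCG-0h). Acta2 and Col1a1 did not pass either and were brighter, with Acta2 at 6.44 and 7.26 and Col1a1 at 6.61 and 6.53 (same order). The part of theca cells in the signal of the 5 genes was not tested.

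The lower signal was seen in every sample. Over the probe set with the highest mean of each gene, the 5 genes lay between 6.16 and 7.36 in hCG-6h samples and between 10.71 and 11.91 in hCG-0h samples, on the log2 scale of the deposited values. The groups overlapped in none of the 5, beside 18.7% of all genes that were lower without overlap. The signal was bright at hCG-0h. At hCG-6h it lay above 6.08, the limit under which the dimmest 1 in 3 genes lay. Means of the 5 genes at hCG-6h ran from 6.43 to 7.01, beside array medians of 6.43 to 6.46. The deposited values had been background-corrected, and folds that rest on low signals are less certain, so the folds are approximate. At the gene level 8 of 18194 genes (0.044%) were at least 20-fold lower, namely the 5 genes, Cnnm1 (24.5-fold), Rph3al (23.2-fold) and Fbp1. The smallest of these folds were those of Fbp1 (21.7-fold) and Fam81a (22.3-fold), and just outside lay Hpgd (19.4-fold) and Slfn4 (17.5-fold).

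**Figure D1:**
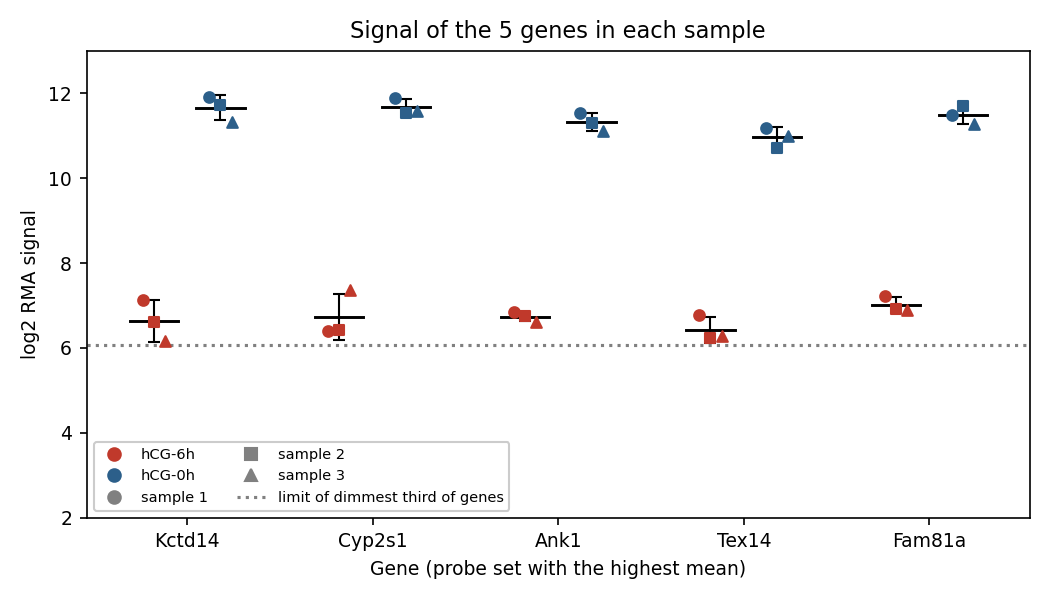
Log2 signal (y axis) of Kctd14, Cyp2s1, Ank1, Tex14 and Fam81a (x axis) in hCG-6h samples (red, left) and hCG-0h samples (blue, right), with marker shapes for samples 1 to 3, horizontal lines for means and bars for SD (n = 3 each). All values at hCG-6h lie between 6.16 and 7.36, all at hCG-0h between 10.71 and 11.91, and the dotted line marks 6.08, the limit of the dimmest 1 in 3 genes.

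Kctd14 was seen by 4 probe sets. Its brightest probe set, 1426633_s_at, read 7.14, 6.62 and 6.16 in hCG-6h samples 1, 2 and 3, against 11.91, 11.72 and 11.33 in hCG-0h samples 1, 2 and 3. The groups were 4.19 apart at their closest, and the means were 6.64 ± 0.49 and 11.65 ± 0.30 (SD, n = 3 each), a log2 change of -5.01 ± 0.27 (SE) or 32.3-fold lower. Probe set 1455452_x_at read 6.08, 7.32 and 6.86 at hCG-6h, against 11.46, 11.42 and 10.79 at hCG-0h, and was 22.2-fold lower. Its suffix, like that of 1426633_s_at, marks probes that may also bind other transcripts.

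The other pair of Kctd14 probe sets gave the smallest and the largest fold of the gene, and their SEs come from the fit of every probe set on its own. Probe set 1426632_at read 7.08, 7.01 and 6.84 at hCG-6h, against 10.28, 10.21 and 9.65 at hCG-0h, and was 8.40-fold lower (log2 change -3.07 ± 0.19, SE). Probe set 1455451_at read 4.89, 3.92 and 6.69 at hCG-6h, against 10.83, 10.75 and 10.14 at hCG-0h, and was 42.4-fold lower (log2 change -5.41 ± 0.66, SE). That fold rests on a wide spread at hCG-6h, where 2 of 3 values lay under 6.08, and the log2 change was -4.78 without hCG-6h sample 2 and -6.17 without hCG-6h sample 3. All 4 probe sets were thus lower without overlap, by folds that differed between them. In all 4, hCG-0h sample 3 was the lowest of the hCG-0h samples. The order of the hCG-6h samples differed between probe sets.

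Cyp2s1 was seen by 1 probe set, 1428283_at. It read 6.41, 6.43 and 7.36 in hCG-6h samples 1, 2 and 3, against 11.89, 11.54 and 11.59 in hCG-0h samples 1, 2 and 3. The groups stood 4.18 apart at their closest, and hCG-6h sample 3, described as taken at 8 h, was the highest of its group. In the brightest probe sets of Kctd14, Ank1 and Fam81a that sample was the lowest of its group. Means of Cyp2s1 were 6.73 ± 0.54 and 11.67 ± 0.19 (SD, n = 3 each), a log2 change of -4.94 ± 0.27 (SE) or 30.7-fold lower. Only 10.7% of all genes had a larger SD within groups than Cyp2s1, and 10.8% a larger one than Kctd14.

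Ank1 was the gene whose probe sets disagreed. Probe set 1425677_a_at read 6.84, 6.76 and 6.62 at hCG-6h, against 11.53, 11.31 and 11.12 at hCG-0h, and was 23.9-fold lower (log2 change -4.58 ± 0.14, SE). Probe set 1419421_at read 6.46, 5.69 and 6.24 at hCG-6h, against 8.29, 8.43 and 8.06 at hCG-0h, and was 4.38-fold lower. In both the groups did not overlap, with hCG-0h sample 3 again the lowest hCG-0h sample.

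The remaining Ank1 probe sets lay under 6.08 in every sample and showed no such difference. Probe set 1452512_a_at read 5.13, 5.04 and 5.15 at hCG-6h, against 5.16, 5.04 and 5.04 at hCG-0h. Probe set 1443291_at read 4.40, 4.28 and 4.06 at hCG-6h, against 5.07, 4.24 and 3.89 at hCG-0h. In both the groups overlapped, with log2 changes of 0.03 and -0.15. The reference gene table lists 29 transcripts for Ank1, more than for Tex14 (10), Kctd14 (8), Fam81a (4) and Cyp2s1 (1). The sources used here do not tell which Ank1 transcripts each probe set reports. With the mean of its 4 probe sets, Ank1 was 3.27-fold lower in place of 23.9-fold.

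**Figure D2:**
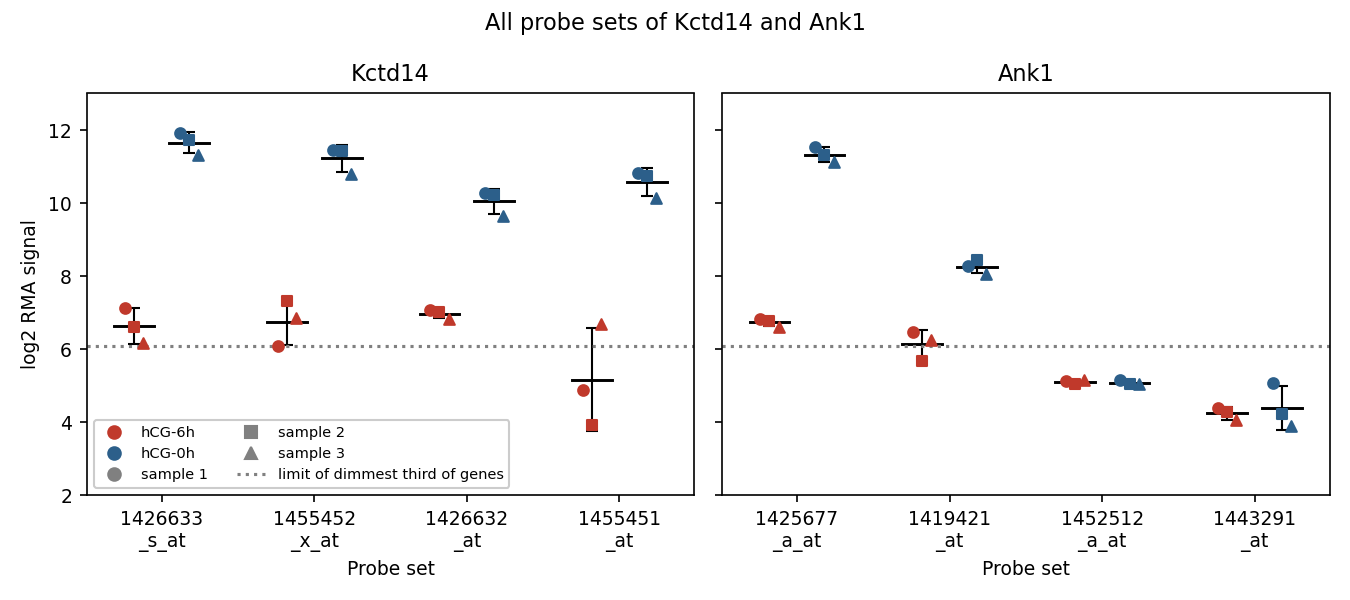
Log2 signal (y axis) of each probe set of Kctd14 (left panel) and Ank1 (right panel), with hCG-6h samples in red left of hCG-0h samples in blue, marker shapes for samples 1 to 3, lines for means and bars for SD (n = 3 each). All 4 Kctd14 probe sets are lower at hCG-6h without overlap, whereas 2 of 4 Ank1 probe sets lie under the dotted limit of 6.08 in every sample and overlap.

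Tex14 was seen by 1 probe set, 1419240_at. It read 6.78, 6.23 and 6.28 in hCG-6h samples 1, 2 and 3, against 11.18, 10.71 and 11.00 in hCG-0h samples 1, 2 and 3. The groups were 3.93 apart at their closest, with hCG-6h sample 1 the highest of its group. Means were 6.43 ± 0.30 and 10.96 ± 0.24 (SD, n = 3 each), a log2 change of -4.53 ± 0.19 (SE) or 23.2-fold lower. As Tex14 is best known from germ cells, the oocyte markers are set beside it. Of 14 of them 0 passed in limma (2 at an unadjusted p under 0.05, both higher at hCG-6h), 11 lay under 6.08 at hCG-6h and 12 at hCG-0h, and their mean log2 level was 5.22 to 5.31 in hCG-6h samples and 4.96 to 5.20 in hCG-0h samples. Zp3, a protein of the oocyte's coat, stood at 4.85 and 4.68, and Ddx4, a germ cell helicase, at 3.52 and 3.27 (means at hCG-6h and hCG-0h). Dppa3, a maternal factor of oocytes, stood at 7.63 and 6.67, and Padi6, an enzyme of oocytes, at 6.44 and 6.34, both above 6.08 (means at hCG-6h and hCG-0h). The part of oocytes in the Tex14 signal was not tested.

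Fam81a was also seen by 1 probe set, 1425213_at. It read 7.22, 6.91 and 6.90 at hCG-6h, against 11.48, 11.70 and 11.28 at hCG-0h. The groups were 4.06 apart at their closest. Means were 7.01 ± 0.18 and 11.49 ± 0.21 (SD, n = 3 each), a log2 change of -4.48 ± 0.15 (SE) or 22.3-fold lower. Of the 11 probe sets of the 5 genes, 9 were lower without overlap between the groups, beside 18.2% of all 34958 probe sets, and 7 were at least 20-fold lower, beside 0.0343%. Both counts follow from the way the genes were chosen.

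The sequences before the starts of 3 of the 5 genes are shown so that their upstream regions can be compared. The shared fall of these genes follows from the way they were chosen. The sequences are RefSeq promoter windows of build GRCm38.p6, each from 250 bases before to 50 bases after the annotated start, written 5′ to 3′ on the gene's own strand. The windows are chr7:25816476-25816775 (minus strand) for Cyp2s1, chr11:87404815-87405114 (plus strand) for Tex14 and chr9:70141508-70141807 (minus strand) for Fam81a. Kctd14 and Ank1 had no entry in that table. Capitals mark the motif GCGTG or its reverse complement.
Cyp2s1: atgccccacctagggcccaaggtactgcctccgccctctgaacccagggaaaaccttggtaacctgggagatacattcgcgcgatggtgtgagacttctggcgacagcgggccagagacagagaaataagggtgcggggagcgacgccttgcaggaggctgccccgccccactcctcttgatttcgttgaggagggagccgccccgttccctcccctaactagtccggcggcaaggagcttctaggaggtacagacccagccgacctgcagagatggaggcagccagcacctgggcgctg
Tex14: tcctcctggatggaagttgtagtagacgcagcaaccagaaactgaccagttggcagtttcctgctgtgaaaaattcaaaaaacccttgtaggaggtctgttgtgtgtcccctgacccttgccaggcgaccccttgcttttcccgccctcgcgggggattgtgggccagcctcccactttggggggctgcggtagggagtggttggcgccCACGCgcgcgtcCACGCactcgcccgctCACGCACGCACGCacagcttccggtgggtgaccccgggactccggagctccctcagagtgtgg
Fam81a: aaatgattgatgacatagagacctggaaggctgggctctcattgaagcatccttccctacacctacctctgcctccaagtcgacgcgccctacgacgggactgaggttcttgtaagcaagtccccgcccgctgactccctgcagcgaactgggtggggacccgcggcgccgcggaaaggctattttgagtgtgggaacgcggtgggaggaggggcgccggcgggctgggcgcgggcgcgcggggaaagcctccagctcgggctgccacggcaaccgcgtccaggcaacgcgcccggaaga
The share of G and C was 63.0% for Cyp2s1, 62.3% for Tex14 and 65.7% for Fam81a. Over 32851 windows the median was 52.7% and the upper quartile 61.7%. The 3 windows held 17, 20 and 30 CpG dinucleotides in the same order, against a median of 7. Of 8 motifs searched on both strands, only GCGTG was found, and only in Tex14. GCGTG is the core of the aryl hydrocarbon receptor's site, and Tex14 held it 5 times on the minus strand, starting at bases -41, -29, -13, -9 and -5 relative to the start, the last 3 overlapping by single bases. It occurs in 32.4% of all windows at least once and in 0.463% at least 5 times. The others were the cyclic AMP response element in full (TGACGTCA, in 1.79% of all windows) and as 5 bases (TGACG, 20.8%), and AP-1 (TGANTCA, 7.81%). The rest were SF-1 and LRH-1 (CAAGGTCA, 1.56%), FOXO (TGTTTAC, 3.65%), a TATA box (TATAAA, 13.6%) and RUNX (TGTGGT, 16.8%). TGACGTCA contains TGACG. A match or its absence describes these letters in this window only.

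Likeness of profiles over the 6 samples was measured as the root mean square difference of the 6 log2 values after centring each gene on its own mean, over 16212 named genes, and it mostly follows the size of the fall, by which the 5 genes were chosen. The nearest gene to Ank1 was Fam81a and the reverse, at 0.15. The nearest to Kctd14 was Ank1, at 0.32, followed by Tex14 and Fam81a. Tex14 was nearest to Fbp1, a gluconeogenic enzyme (0.09), then Ank1 and Cnnm1. Cyp2s1 was nearest to Rph3al, a protein of regulated secretion (0.24), then Ank1 and Hpgd, which inactivates prostaglandins. Hpgd and Tex14 followed Ank1 for Fam81a, and Fbp1 and Tex14 followed Fam81a for Ank1. Cyp2s1 lay further from the others, at rank 9 for Kctd14 (0.59) and for Ank1 (0.42), rank 12 for Tex14 (0.47) and rank 15 for Fam81a (0.48).

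Of 142 measured relatives and partners, 13 fell and 13 rose, together 18.3%, beside 21.3% of all genes, and their median log2 change was -0.02.

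Among KCTD genes and Cul3, which encodes cullin-3, 20 were measured, of which 1 fell and 3 rose, with a median log2 change of 0.10. Kctd12b, a relative of the auxiliary subunits of GABA-B receptors, read 4.75, 4.93 and 6.26 in hCG-6h samples, against 6.98, 8.41 and 8.04 in hCG-0h samples. The groups did not overlap, and it fell 5.64-fold (log2 change -2.50 ± 0.50, SE, adjusted p = 0.014, limma), though not without hCG-0h sample 3 (adjusted p = 0.0508). Kctd13 and Kctd15, a cullin-3 adaptor and a regulator of neural crest development, rose 1.71-fold and 1.95-fold (adjusted p = 0.00357 and 0.0117, limma). Cul3 itself had a log2 change of -0.34 and did not pass (adjusted p = 0.0708, limma).

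In the CYP2 family, 0 of 31 measured members fell in limma (2 at an unadjusted p under 0.05) and 1 rose. Cyp2j13 rose 1.32-fold (adjusted p = 0.0362, limma), and its call ended whichever of the 6 samples was left out (adjusted p from 0.0564 to 0.112). With the mean over all arrays, 27 of the 31 genes lay under 6.08, a range in which falls cannot be seen well. Of partners of P450 enzymes and genes around the aryl hydrocarbon receptor, 3 of 11 fell and 2 rose, together 45.5%, beside 21.3% of all genes, and this difference was not tested. The 2 rises became 1 with the sample number as a block and 0 with hCG-6h sample 1 alone. Cyp1b1, a P450 that hydroxylates oestrogens and a known target of that receptor, read 8.50, 8.64 and 8.59 at hCG-6h, against 11.11, 10.91 and 11.42 at hCG-0h, and fell 5.94-fold (adjusted p = 8.88e-05, limma). All 3 of its probe sets fell.

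Ahr, the receptor itself, read 6.35, 7.46 and 6.61 at hCG-6h, against 8.17, 8.70 and 9.42 at hCG-0h, and fell 3.88-fold (adjusted p = 0.0137, limma). The groups did not overlap, and 1 of its 2 probe sets passed when each was tested on its own. Cyb5a, cytochrome b5, which passes electrons to P450 enzymes, fell 1.94-fold (adjusted p = 0.000931, limma). Cyp1a1, the receptor's classical target, was dim and had a log2 change of -0.02 (adjusted p = 0.945, limma).

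In the membrane skeleton list 3 of 22 measured genes fell and 3 rose, with a median log2 change of 0.11. Ank3, ankyrin-G, read 8.46, 7.98 and 7.98 in hCG-6h samples, against 10.71, 10.88 and 10.56 in hCG-0h samples. It fell 5.97-fold (log2 change -2.58 ± 0.17, SE, adjusted p = 0.000138, limma), and 5 of its 6 probe sets passed in that direction. Ank2, ankyrin-B, had a log2 change of -0.18 and did not pass (adjusted p = 0.817, limma). Epb41l1, a relative of the red cell protein 4.1, rose 3.19-fold (adjusted p = 0.000571, limma).

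Gypc, glycophorin C, rose 2.26-fold (adjusted p = 0.0391, limma). That call ended when hCG-0h sample 2 or 3, or any hCG-6h sample, was left out (adjusted p from 0.0703 to 0.116). The spectrins Sptan1 and Sptbn1, to which ankyrins bind, had log2 changes of 0.37 and 0.24 and did not pass (adjusted p = 0.0625 and 0.256, limma).

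Erythroid markers are set beside Ank1, as red cells are its best known site. Of 8 measured markers 2 fell and 1 rose. Their mean log2 level was 6.19 to 6.35 in hCG-6h samples and 6.23 to 6.46 in hCG-0h samples, so the ranges overlapped. The log2 of their summed signal weighs bright markers most. It was 11.83 to 11.91 in hCG-6h samples and 12.01 to 12.11 in hCG-0h samples, lower at hCG-6h without overlap. Among the alpha globins, Hba-a1 was dim, with a mean of 5.33 in hCG-6h samples and 5.09 in hCG-0h samples. Hba-a2, an alpha globin, was bright at 11.67 and 11.88 (means at hCG-6h and hCG-0h) and did not pass (adjusted p = 0.184, limma). Klf1, the erythroid transcription factor, read 5.09, 4.92 and 5.02 at hCG-6h, against 8.30, 7.59 and 6.30 at hCG-0h (adjusted p = 0.0121, limma). Alas2, the first enzyme of erythroid haem synthesis, fell 2.54-fold, and Hbb-b2, a beta globin, rose 7.67-fold (adjusted p = 0.00125 and 0.00283, limma). Slc4a1, the red cell anion exchanger to which Ank1 binds, stood at 6.24 and 6.10 and Rhag, a red cell membrane protein, at 2.96 and 2.93 (means at hCG-6h and hCG-0h). The part of red cells in the Ank1 signal was not tested.

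Among partners of Tex14 in cytokinesis and intercellular bridges, 4 of 27 measured genes fell and 2 rose, together 22.2%, beside 21.3% of all genes, with a median log2 change of -0.0033. The 4 falls became 1 with the sample number as a block and 0 with hCG-6h sample 1 alone. Cep55, the abscission protein that Tex14 binds, had a log2 change of 0.22 and did not pass (adjusted p = 0.333, limma). Septin9, a filament protein of the cleavage furrow, rose 2.36-fold and Plk1, a mitotic kinase, 1.86-fold (adjusted p = 0.0118 and 0.00957, limma). Aurkb, the kinase that times abscission, fell 1.58-fold (adjusted p = 0.0159, limma), though not without hCG-6h sample 1 or 2 (adjusted p = 0.0548 and 0.0546).

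Other genes called Tex share a name given for expression in testis. Of 30 measured, 2 fell and 2 rose, and 17 had a mean under 6.08. Tex15, needed for meiotic recombination and transposon silencing in male germ cells, read 8.38, 8.85 and 8.08 in hCG-6h samples, against 11.51, 11.62 and 11.50 in hCG-0h samples. It fell 8.61-fold (log2 change -3.11 ± 0.20, SE, adjusted p = 0.000126, limma), the largest fall among all 142 relatives. Tex21 fell 2.72-fold and Tex30 rose 2.17-fold (adjusted p = 0.00125 and 0.00086, limma). Fam81b, the only close relative of Fam81a, read 3.46, 3.51 and 3.38 at hCG-6h, against 3.47, 3.17 and 3.33 at hCG-0h. It was dim in every sample and did not pass (adjusted p = 0.51, limma).

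**Figure D3:**
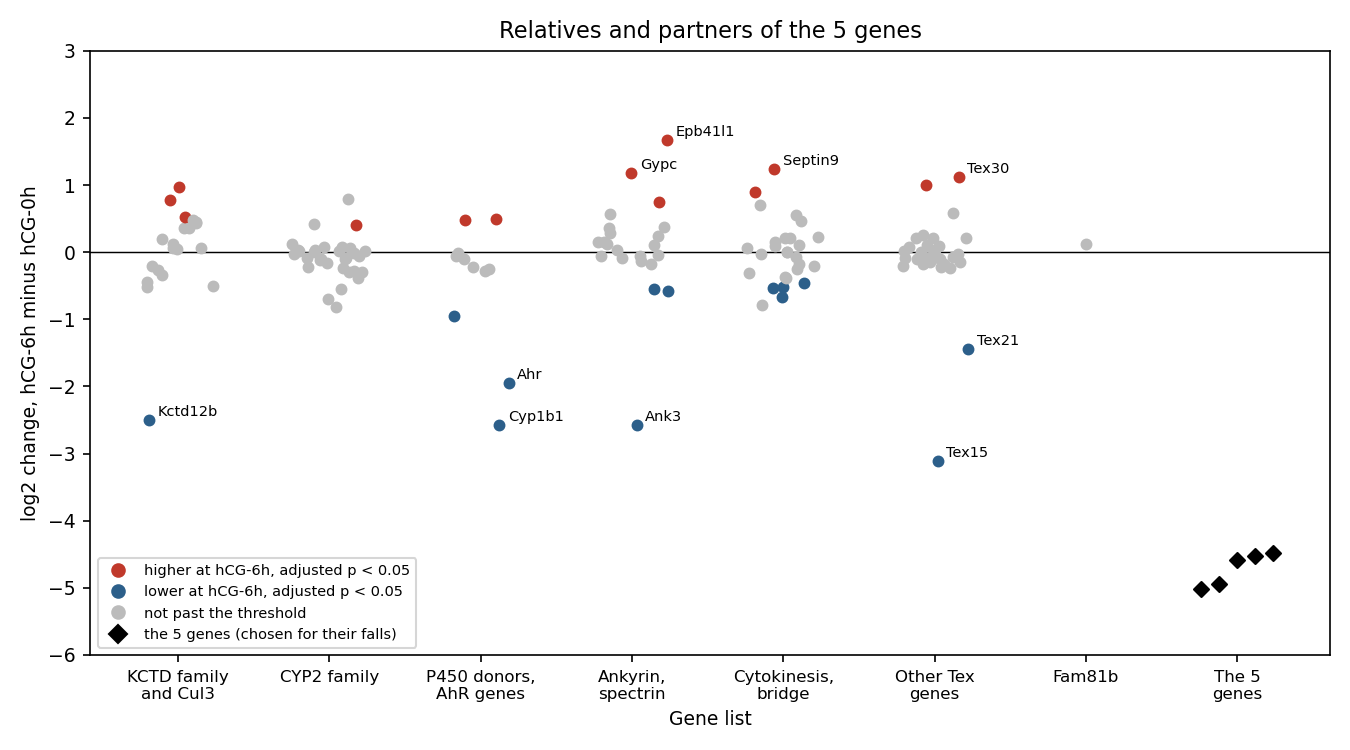
Log2 change, hCG-6h minus hCG-0h (y axis), of each measured gene of the lists of relatives and partners (x axis), red where higher and blue where lower past the threshold and grey otherwise, beside the 5 genes themselves (black diamonds). Of 142 genes 13 fell and 13 rose, and the lowest of them was Tex15 at -3.11.

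The neighbours of the 5 genes on the chromosomes were the 3 nearest measured genes on each side in the order of the reference gene table, and none overlapped them. There were 10 falls and 3 rises among these 30 genes, together 43.3%, beside 21.3% of all genes, with a median log2 change of -0.16. Genes beside each other on a chromosome are not independent, and no test of this share was made. The largest fall among them was 3.62-fold. With hCG-6h sample 1 alone 6 fell and 1 rose.

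Falls lay beside Kctd14, Tex14 and Fam81a. Around Kctd14, 4 of 6 neighbours fell, led by Aamdc at 2.52-fold, followed by Ints4, a subunit of the Integrator complex, Alg8, an enzyme of protein glycosylation, and Ndufc2, a subunit of respiratory complex I (1.85-fold, 1.55-fold and 1.41-fold, adjusted p = 0.00276, 0.0344, 0.0362 and 0.013, limma). The call of Alg8 was lost whenever an hCG-0h sample, or hCG-6h sample 1 or 3, was left out (adjusted p from 0.0641 to 0.106). That of Ints4 was lost when hCG-0h sample 2 or 3, or else hCG-6h sample 1 or 2, was left out (adjusted p from 0.0869 to 0.0969). Thrsp and Rsf1 had log2 changes of -0.08 and -0.39 and did not pass.

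Around Tex14, Trim37, a ubiquitin ligase, read 9.29, 8.88 and 9.08 at hCG-6h, against 10.75, 10.91 and 11.16 at hCG-0h, and fell 3.62-fold (adjusted p = 0.000374, limma). Ppm1e, a protein phosphatase, and Septin4, a filament protein, fell 3.12-fold and 2.49-fold (adjusted p = 0.000613 and 0.00401, limma). Rad51c, Mtmr4 and Hsf5 did not pass, at log2 changes of 0.10, -0.44 and -0.12.

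Around Fam81a, Ccnb2, a mitotic cyclin, fell 2.29-fold, Myo1e, a class I myosin, 1.71-fold and Gtf2a2, a general transcription factor, 1.34-fold (adjusted p = 0.000893, 0.0141 and 0.0239, limma). Myo1e did not pass with the mean of its probe sets (adjusted p = 0.312, limma), and Gtf2a2 not when hCG-0h sample 2 or 3, or any hCG-6h sample, was left out (adjusted p from 0.0511 to 0.0781). Bnip2, Gcnt3 and Rnf111 had log2 changes of 0.28, -0.17 and -0.17 and did not pass.

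No neighbour of Cyp2s1 or Ank1 fell. Beside Cyp2s1, Axl, a receptor tyrosine kinase, read 10.26, 10.27 and 10.28 in hCG-6h samples, against 8.09, 8.40 and 9.53 in hCG-0h samples, and rose 3.02-fold (adjusted p = 0.0192, limma). Ccdc97 rose 1.57-fold (adjusted p = 0.0448, limma). The call of Axl ended when hCG-0h sample 2 or any hCG-6h sample was left out (adjusted p from 0.0546 to 0.0639), and that of Ccdc97 when any hCG-0h sample, or hCG-6h sample 1 or 2, was left out (adjusted p from 0.0853 to 0.119). Cyp2b10, Cyp2b13 and Cyp2b9, P450 genes on the other side of Cyp2s1, were dim in both groups and did not pass, like Hnrnpul1 (log2 changes 0.42, 0.03, 0.02 and -0.15).

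Beside Ank1, Plat, tissue plasminogen activator, read 7.89, 6.01 and 6.10 at hCG-6h, against 4.81, 4.82 and 5.21 at hCG-0h, and rose 3.29-fold at the edge of the threshold (adjusted p = 0.0495, limma). Its call ended when any hCG-0h sample or hCG-6h sample 3 was left out (adjusted p from 0.0588 to 0.132), and without hCG-6h sample 1 the log2 change was 1.11 in place of 1.72. The other 5 neighbours of Ank1, namely Ap3m2, Kat6a, Nkx6-3, Gpat4 and Gins4, had log2 changes between -0.38 and 0.40 and did not pass.

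**Figure D4:**
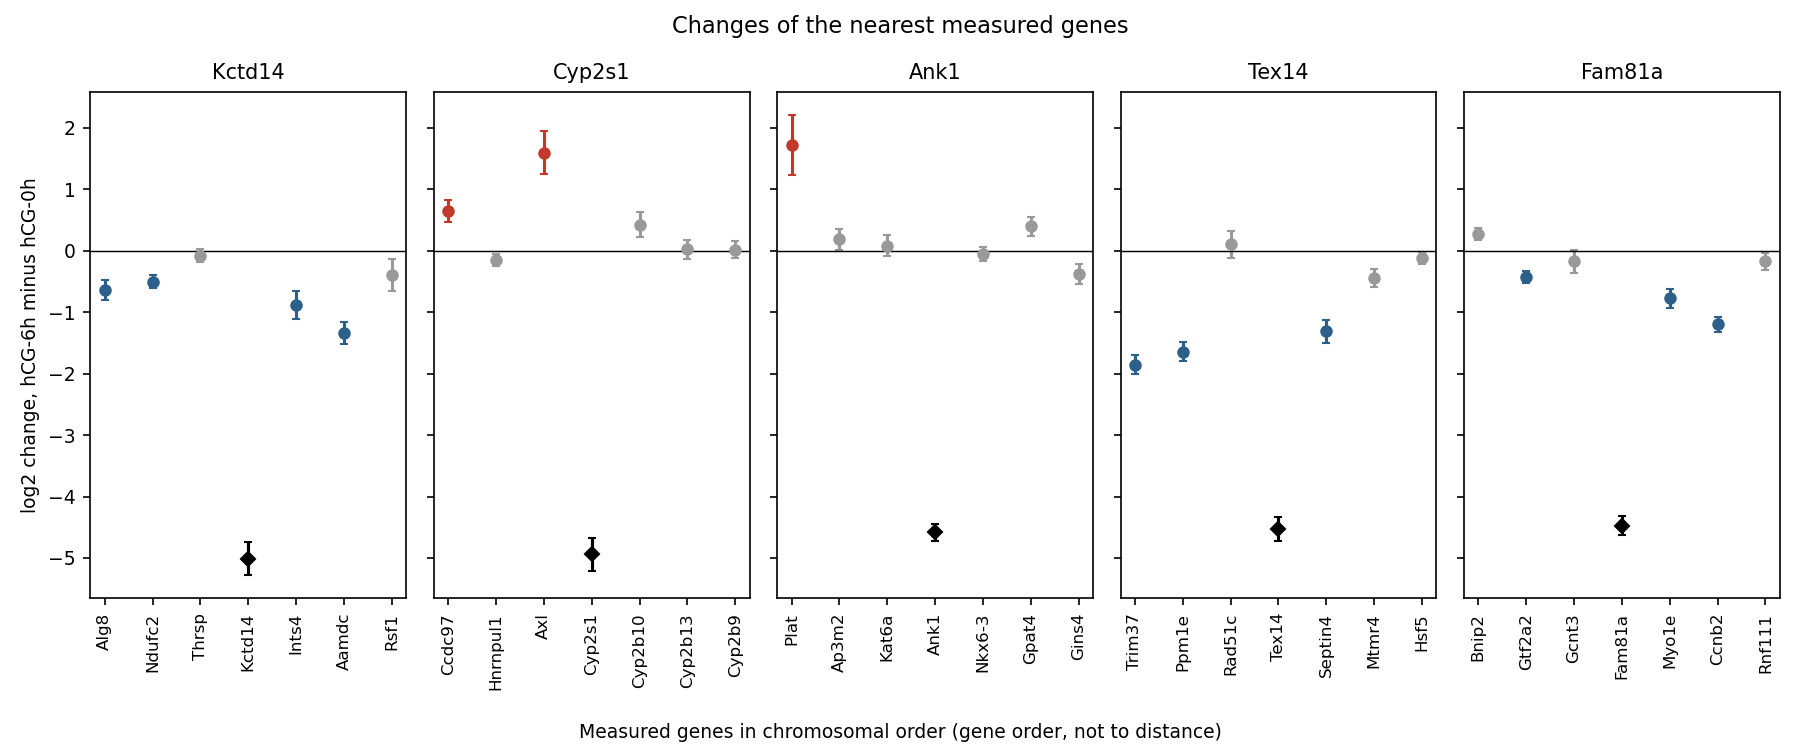
Log2 change, hCG-6h minus hCG-0h (y axis), of the 3 nearest measured genes on each side of Kctd14, Cyp2s1, Ank1, Tex14 and Fam81a in chromosomal order (x axis, order and not distance), with bars for SE, red where higher, blue where lower past the threshold, grey otherwise and black diamonds for the 5 genes. Of 30 neighbours 10 fell, all of them beside Kctd14, Tex14 or Fam81a, and 3 rose.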

How the data were processed

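The deposited values are log2 signals of 45101 probe sets on 6 single-colour arrays, made by the authors with GCOS, Affymetrix Expression Console 1.1 and RMA, per the submitters' processing notes. RMA corrects background, equalises the arrays' distributions by quantiles and combines the probes of a set. Per the labels' protocols, cDNA was amplified from total RNA with a whole-transcriptome kit before biotin labelling, and 1 protocol speaks of cumulus-oocyte complexes as the source of RNA. The genome build was not given in the sources used here. Array medians lay between 6.43 and 6.46, and the number of arrays limits the precision.

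Probe sets were named from the platform annotation (34958 with 1 symbol, 932 with several, 9211 not listed), and the probe set with the highest mean over 6 arrays stood for a gene. All 18194 genes were fitted with limma 3.58.1 in R 4.3.3 (lmFit, eBayes, group as the only term, two-sided, Benjamini-Hochberg threshold 0.05). The median SE was 0.15. The script was tested on simulated data. There 3 of 50 log2 changes of 0.5 were called, 35 of 50 of 1, 42 of 50 of 2 and 50 of 50 of 4. Genes with small changes that did not pass may thus have changed.

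The members and the lists were chosen with earlier results of these data known. Named genes are the 5 genes, up to 3 genes past the threshold with the largest changes in each of 7 lists, the 3 most similar profiles and 6 neighbours of each member, and genes next to 20-fold. Relatives that did not pass and markers are named because a comparison turns on them, with their values seen. Of 172 listed relatives 142 were measured, and 30 were not analysed here. RefSeq promoter windows (GRCm38.p6) were searched on both strands.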

Additional observations from a re-analysis of the deposited data

How the results depend on the processing

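The 5 genes were lower at hCG-6h under all 15 other settings, by the brightest probe set or the mean of the probe sets. These settings reuse the values by which the 5 genes were chosen, so they describe the fall and do not test it. The log2 changes of the 5 genes with each sample left out in turn were -5.26 to -4.77 for Kctd14, -5.25 to -4.78 for Cyp2s1, -4.68 to -4.48 for Ank1, -4.71 to -4.43 for Tex14 and -4.58 to -4.37 for Fam81a. Averaging the probe sets gave -4.49 for Kctd14 and -1.71 for Ank1. The Ank1 mean includes 2 dim probe sets without such a fall, with log2 changes of 0.03 and -0.15 on their own. With hCG-6h sample 1 alone the changes were -4.51 for Kctd14, -4.18 for Tex14 and -4.27 for Fam81a, and 1577 genes were called (767 lower, 810 higher), with fewer samples in the fit. Every probe set on its own gave 6541 calls (3298 lower, 3243 higher) among more features. With each sample left out, 2920 to 3211 genes were called, 1402 to 1605 lower and 1476 to 1606 higher.

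Among relatives the cause of the moves below was not tested. Of KCTD genes 2 fell with a trend and robust variance, 2 with array weights and 3 with mean probe sets, and 0 rose with hCG-6h sample 1 alone. With each sample left out 0 to 2 fell and 2 to 4 rose. Of CYP2 genes 0 rose without the dimmest genes, 2 with mean probe sets and 0 with hCG-6h sample 1 alone, and 0 to 1 fell and 0 to 1 rose with each sample left out. Of P450 partners 1 rose with the sample number as a block and 0 with hCG-6h sample 1 alone (1 to 2 with each sample left out). In the skeleton list 1 fell and 1 rose with hCG-6h sample 1 alone, and 2 to 3 fell and 2 to 3 rose with each sample left out. In the cytokinesis list 1 fell with the block and 0 with hCG-6h sample 1 alone. There 4 rose with a trend and robust variance, 4 with mean probe sets and 1 with hCG-6h sample 1 alone, and 2 to 4 fell and 2 to 3 rose with each sample left out. Of other Tex genes 2 fell and 2 to 3 rose with each sample left out. Of the 30 neighbours 6 fell with hCG-6h sample 1 alone and 7 to 9 with each sample left out. The 3 rises became 1 with the block, with every probe set on its own, with array weights and with hCG-6h sample 1 alone, and 0 to 2 with each sample left out.

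Of single named genes refitted under the other settings none changed direction. With hCG-6h sample 1 alone, the calls of Kctd13, Kctd15, Ahr, Plk1, Aurkb, Gypc, Cyp2j13, Alg8, Ndufc2, Ints4, Axl, Ccdc97, Gtf2a2 and Klf1 were lost (adjusted p from 0.0583 to 0.255). The block ended those of Aurkb, Cyp2j13, Alg8, Gtf2a2, Ccdc97 and Plat (0.0530 to 0.0953), array weights and probe sets on their own those of Ccdc97 and Plat (0.0511 to 0.0566), and quantile normalisation applied again those of Ccdc97 and Gypc (0.0523 and 0.0505).

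With the sample number as a replicate block 1594 genes were lower and 1670 higher. Same-numbered samples deviated together with r across genes of only -0.02 to 0.03. The labels give no pairing, and such an r cannot tell whether same-numbered samples were handled together. Low signal at hCG-6h limits the folds of the 5 genes, and low signal in both groups limits the view of the dim CYP2, Tex and Fam81b genes.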
